A study of Mus musculus with 12 samples.

Results

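Mouse bone marrow neutrophils and bone marrow derived macrophages are described here as they were before any exposure to CGRP, from the saline (PBS) libraries only. These are 6 of the 12 libraries of the series, 3 from each cell type, chosen by their labels and not by any measured value, and the 2 count tables were joined on the gene identifier. All cells came from C57BL/6J mice aged 8 to 12 weeks. The neutrophils were enriched with a negative selection kit (EasySep) and went straight into RPMI with fetal bovine serum for 4 h with saline. The macrophages, called monocyte/macrophage in the labels, began as marrow monocytes enriched with a second EasySep kit. They were kept for 3 days in DMEM/F12 with fetal bovine serum and 10 ng/ml M-CSF, the growth factor that drives monocytes towards macrophages, and then received fresh medium with saline for 4 h. Cell type, days in culture, medium and M-CSF therefore differ together between the groups, and their parts in any difference cannot be told apart. Nothing in the labels says that the 3 libraries of a group came from separate mice, so a p-value measures the spread between these libraries, which may be technical.

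Reverse transcription started from the poly-A tail, and each cDNA carried a unique molecular identifier, so that a count stands for a tagged molecule near the 3′ end of a transcript. Neutrophil libraries held 3299174, 3631989 and 2719556 counts and macrophage libraries 3379068, 3477069 and 2536415. Levels are given as CPM, the counts per 1000000 of a library's total after scaling by TMM, and a floor of 3 counts corresponds to between 0.860 and 1.08 CPM, which covers counting error only. Every difference is a log2 value, neutrophil minus macrophage, so that positive values are higher in neutrophils, and a value in parentheses after a gene is this difference. Where a gene had 3 or fewer counts over the 3 libraries of a group, the fitted difference depends on the small count that the method adds, and a bound from the floor (3 counts over the group) or a ratio with its counting interval is given where the text rests on it. CPM is a share of the library's RNA. The amount of RNA per cell was not measured, and in a bulk library fewer cells of a type and less RNA per cell cannot be told apart.

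Neutrophils are short-lived phagocytes that leave the marrow with their killing proteins already packed in granules. Azurophil granules are filled at the promyelocyte stage, specific and gelatinase granules later, and the mature cell is known for relying on glycolysis and for a strong oxidative burst. Macrophages are long-lived phagocytes that clear dead cells, digest them in lysosomes, and recycle the iron and cholesterol they take up. M-CSF acts on them through CSF1R, whereas G-CSF acts on the neutrophil lineage through CSF3R.

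The cell types differed across most of the transcriptome. Of 10186 genes tested with limma-voom, 6975 (68.5%) passed an adjusted p of 0.05 (Benjamini-Hochberg), 3614 of them (35.5%) higher in neutrophils and 3361 (33%) higher in macrophages. A second test, limma's treat, asked for a difference of over 2-fold. It was passed by 2630 genes (25.8%), of which 1552 (15.2%) were higher in neutrophils and 1078 (10.6%) were higher in macrophages. These shares are the background against which each list below is read. The median log2 difference of all genes was 0.0296, and all 3 libraries of a cell type lay on the same side of all 3 of the other for 71.0% of genes. By the fitted values, 145 genes were over 100-fold higher in neutrophils and 6 were over 100-fold higher in macrophages. Of these, 61 and 3 genes had more than 3 counts in the lower cell type, and for the others the size rests on the small count added. The 10 most abundant genes took 21.01% to 25.65% of neutrophil counts and 14.44% to 17.27% of macrophage counts. Libraries of the same cell type correlated at Pearson's r of 0.973 to 0.985 across the genes tested (log2 of CPM + 1), and libraries of different cell types at 0.666 to 0.680, across genes that are not independent replicates.

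**Figure D1:**
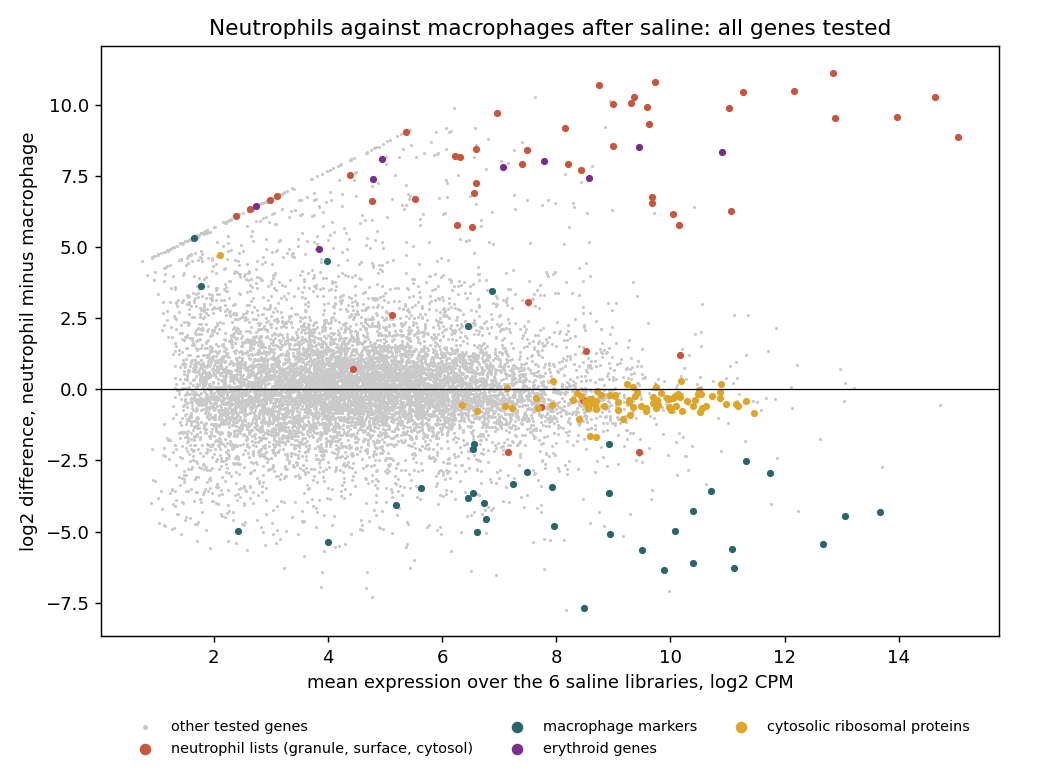
Each point is a gene, with mean expression over the 6 saline libraries on the horizontal axis (log2 CPM) and the log2 difference (neutrophil minus macrophage) on the vertical axis. Neutrophil list genes (red) reach 11.12 and macrophage markers (teal) −7.69, erythroid genes (purple) lie between 4.94 and 8.52, ribosomal protein genes (yellow) lie mostly just under 0, and the straight upper edge at low expression holds genes with no counts in macrophages.

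The 10 genes with the largest neutrophil excess were nearly all granule or surface proteins of the lineage. *Camp*, the cathelicidin antimicrobial peptide, was at 12335, 18921 and 12864 CPM in the 3 neutrophil libraries and 6.02, 8.68 and 4.67 CPM in the 3 macrophage libraries (log2 difference 11.12, SE 0.307, adjusted p = 6.73e-16). It lies on chromosome 9, from 109847379 to 109849617 in GRCm38. *Ly6g*, the surface protein used to identify mouse neutrophils, was at 854, 1030.2 and 706 CPM in the 3 neutrophil libraries and 0, 0.898 and 0.719 CPM in the 3 macrophage libraries (log2 difference 10.70, SE 0.64, adjusted p = 4.32e-11; chromosome 15, from 75155240 to 75159126). Both genes were high in every neutrophil library. In the macrophage libraries *Ly6g* was at or near the floor, while *Camp* was low but above the floor in each. The other members of the 10 were *Pglyrp1* (10.78), *Ltf* (10.49), *Lcn2* (10.43), *Ngp* (10.27), *Mpo* (10.25), *Itgb2l* (10.25), *Fcnb* (10.14) and *Lrg1* (10.06). Lactoferrin (*Ltf*) and lipocalin-2 (*Lcn2*) withhold iron from bacteria, *Pglyrp1* binds peptidoglycan, *Mpo* is myeloperoxidase and *Fcnb* is ficolin-B. *Itgb2l* had 2 counts in all 3 macrophage libraries together (ratio 1912, with a 95% counting interval of 529 to 15797).

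The granule lists separated by granule type only in part. All 16 tested genes of specific and gelatinase granules were higher in neutrophils (15 by over 2-fold; median log2 difference 8.03). Among 8 azurophil genes, 5 were higher in neutrophils: *Mpo* (10.25), *Elane* (9.30), *Serpinb1a* (8.54), *Prtn3* (7.91) and *Ctsg* (7.25). These are myeloperoxidase, the serine proteases elastase, proteinase 3 and cathepsin G, and an inhibitor of them. The remaining 3 were higher in macrophages, among them *Ctsc* (−0.36) and *Hexa* (−2.21). These encode cathepsin C and a hydrolase that ordinary lysosomes also hold. *Elane* stood at 1603, 1707 and 1435 CPM in the 3 neutrophil libraries and 2.29, 2.99 and 1.8 CPM in the 3 macrophage libraries, with no overlap. Of 27 tested surface and cytosolic markers, 26 were higher in neutrophils, and the exception was *Cd300ld* (−0.64), a myeloid receptor. The calprotectin genes *S100a8* and *S100a9* were at 67262 ± 17144 against 143 ± 41.1 CPM and 32158 ± 5166 against 42.9 ± 12.7 CPM (mean ± SD, n = 3 libraries, neutrophils first here and below), 469-fold and 755-fold apart.

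Promoters of the granule genes were searched for the letters of 2 myeloid motifs. The letters GAGGAAGT, a form of the site bound by PU.1 (the product of *Spi1*, a myeloid transcription factor), were searched on both strands from 250 bases before to 50 bases after each start site in RefSeq's promoter table (GRCm38.p6). They were found in 4 of the 6 azurophil genes with a promoter in that table, in 3 of 15 specific and gelatinase granule genes, and in 4.27% of all tested genes with a promoter (338 of 7909). *Ctsc*, which was higher in macrophages, is among the 4. The C/EBP palindrome TTGCGCAA was in none of these 21 granule promoters and in 0.379% of the tested genes. A match is a description of the sequence and not a bound site. The stretches around the matches are printed to show where they sit, 5′ to 3′ along the gene's strand, with the motif or its reverse complement in capitals.
Mpo (chr11:87793534-87793593, plus strand): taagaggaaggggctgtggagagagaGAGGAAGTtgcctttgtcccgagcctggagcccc
Elane (chr10:79886201-79886260, plus strand): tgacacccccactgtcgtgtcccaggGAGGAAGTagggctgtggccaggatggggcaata
Prtn3 (chr10:79879546-79879605, plus strand): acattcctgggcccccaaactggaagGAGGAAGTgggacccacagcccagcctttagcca
Ctsc (chr7:88277908-88277967, plus strand): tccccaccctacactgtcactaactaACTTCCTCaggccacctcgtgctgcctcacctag
The motif began 224 bases before the start site in *Mpo*, 85 in *Elane*, 95 in *Prtn3* and 151 in *Ctsc*. *Spi1* itself was at 356, 359.9 and 356 CPM in the 3 neutrophil libraries and 359, 351 and 365 CPM in the 3 macrophage libraries (adjusted p = 0.982) with overlapping libraries, and the 95% interval of its log2 difference was −0.22 to 0.21.

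Most macrophage markers were higher in the macrophage libraries. Of 37 tested markers, 32 were higher in macrophages, all of them by over 2-fold (median log2 difference of the list −3.98). *Adgre1*, which encodes F4/80, was at 44.2, 44.6 and 34.5 CPM in the 3 neutrophil libraries and 447, 379 and 501 CPM in the 3 macrophage libraries (log2 difference −3.41, SE 0.149, adjusted p = 5.15e-13; chromosome 17, from 57358691 to 57483527). Complement *C1qc* was at 23.7, 19 and 26.6 CPM in the 3 neutrophil libraries and 1792, 1890.5 and 1915 CPM in the 3 macrophage libraries (log2 difference −6.35, SE 0.153, adjusted p = 8.37e-17). Each macrophage library was far above each neutrophil library for both. Lipoprotein lipase (*Lpl*) was at 56.6 ± 6.84 against 4365 ± 374 CPM, the fatty acid binding protein *Fabp4* at 3.33 ± 0.822 against 717 ± 109 CPM and the membrane glycoprotein *Gpnmb* at 38.2 ± 2.24 against 2654 ± 215 CPM. Growth factor *Igf1* was at 14.9 ± 3.27 against 1995 ± 218 CPM (135-fold). The mannose receptor *Mrc1* (CD206) was at 9.15, 5.81 and 9.71 CPM in the 3 neutrophil libraries and 80.3, 80.5 and 111 CPM in the 3 macrophage libraries (log2 difference −3.46, SE 0.252, adjusted p = 7.03e-10).

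The 10 largest macrophage differences reached beyond the classical markers. They were *Atp6v0d2* (−7.74), *Fabp4* (−7.69), *Smpd3* (−7.30), *Igf1* (−7.08), *Vsig8* (−6.97), *Dnmt3aos* (−6.96), *Hpgds* (−6.52), *Cd5l* (−6.41), *Anpep* (−6.41) and *Myo1e* (−6.40). *Atp6v0d2* is a subunit of the proton pump of lysosomes, *Smpd3* a neutral sphingomyelinase, *Hpgds* a prostaglandin D synthase, *Cd5l* a scavenger-type protein that macrophages secrete, *Anpep* an aminopeptidase (CD13) and *Myo1e* a membrane-bound myosin. Several had almost no neutrophil counts: *Smpd3* had 2 over the 3 libraries (ratio 247, with a 95% counting interval of 68 to 2045), *Vsig8* had 3 (ratio 156, with a 95% counting interval of 53.1 to 759), *Dnmt3aos* had 1 (ratio 271, with a 95% counting interval of 48.3 to 10760.0) and *Anpep* had 2 (ratio 134, with a 95% counting interval of 36.8 to 1114). *Smpd3* overlaps *Prmt7* and *Dnmt3aos* overlaps *Dnmt3a* on the opposite strand, and the strand setting of the counting is not given in the sources used here.

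The other 5 macrophage markers went the other way. The iron exporter ferroportin (*Slc40a1*) was at 220.5, 221 and 204 CPM in the 3 neutrophil libraries and 13.2, 25.4 and 23.7 CPM in the 3 macrophage libraries (log2 difference 3.44, SE 0.19, adjusted p = 1.42e-11). The adhesion molecule *Vcam1* was at 28.1, 30.6 and 32.4 CPM in the 3 neutrophil libraries and 1.43, 1.5 and 0.719 CPM in the 3 macrophage libraries (log2 difference 4.49, SE 0.403, adjusted p = 1.33e-08). The haemoglobin scavenger receptor *Cd163* was at 4.73, 7.34 and 6.83 CPM in the 3 neutrophil libraries and 0, 0.598 and 1.08 CPM in the 3 macrophage libraries (log2 difference 3.63, SE 0.619, adjusted p = 4.22e-05). In all 3 the neutrophil libraries were the higher ones, without overlap. The hyaluronan receptor *Lyve1* had 57 counts in neutrophil libraries and 0 in macrophage libraries (at least 19.8-fold higher), and the tetraspanin *Cd81* had a log2 difference of 2.21. Ferroportin, *Vcam1* and *Cd163* are known in resident macrophages of the marrow, which adhere to developing red cells. The other 32 stood in neutrophil libraries at 0.464% (*Fabp4*) to 26.2% (*Hmox1*) of their macrophage level, with a median of 5.1%, among them 1.3% for *Lpl*, 1.24% for *C1qc*, 1.44% for *Gpnmb* and 9.29% for *Adgre1*. Neutrophil genes stood in macrophage libraries at 0.133% of their neutrophil level for *S100a9*, 0.0799% for *Ngp*, 0.0439% for *Camp* and 0.149% for *Elane*. The part of such RNA from other cells in these differences was not tested.

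**Figure D2:**
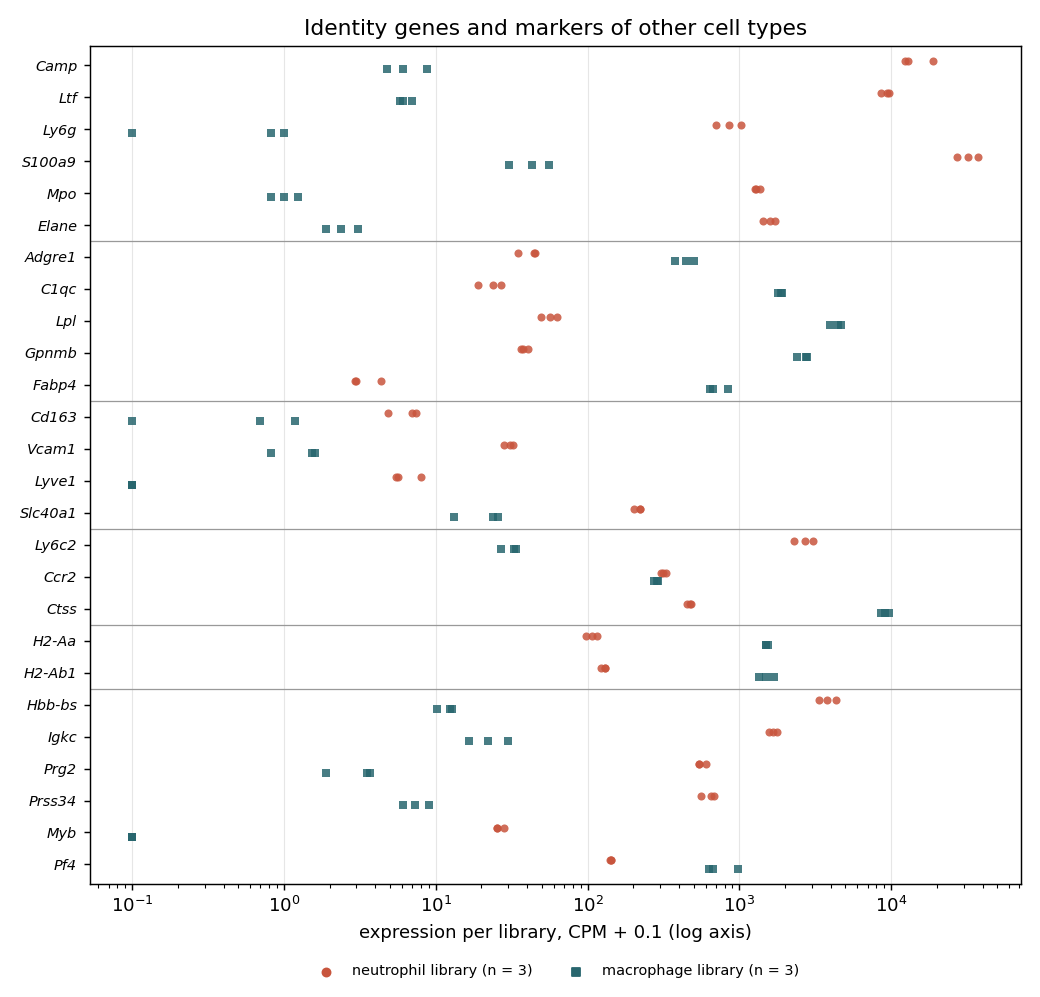
Expression of 26 genes in each saline library (CPM + 0.1, log axis), with red circles for the 3 neutrophil libraries and teal squares for the 3 macrophage libraries. From the top, the blocks hold neutrophil genes, macrophage genes, 4 macrophage markers that were higher in neutrophils, monocyte genes, MHC class II genes and markers of other cell types; only Ccr2 has libraries of the cell types side by side, at 306 to 327 and 274 to 290 CPM.

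Monocyte genes did not move as a block. Of 19 tested, 11 were higher in neutrophils and 5 in macrophages. *Ly6c2*, which encodes the Ly6C protein of inflammatory monocytes, was at 2713, 3078 and 2306 CPM in the 3 neutrophil libraries and 33.8, 32.9 and 27 CPM in the 3 macrophage libraries (log2 difference 6.41, SE 0.154, adjusted p = 8.37e-17), although 48.1% of the 31-base sequences in the last 500 bases of its transcript also occur in another gene, mainly *Ly6c1*. *Plac8* was 73.5-fold higher in neutrophils and versican (*Vcan*) 23.1-fold. The members higher in macrophages were cathepsin S (*Ctss*, −4.28), prosaposin (*Psap*, −2.35), *Irf8* (−1.14), *Ms4a6b* (−0.67) and *Lyz2* (−0.56). The chemokine receptor *Ccr2*, which takes monocytes out of the marrow, was at 327, 306 and 316 CPM in the 3 neutrophil libraries and 288, 289.6 and 274 CPM in the 3 macrophage libraries. Its log2 difference was 0.15 (95% interval −0.07 to 0.38, adjusted p = 0.2), and it did not pass the test although the libraries did not overlap. The lysozyme genes differed unequally: *Lyz2* was at 21647 ± 2487 against 32581 ± 8528 CPM (log2 difference −0.56, libraries overlapping) and *Lyz1* at 13.6, 9.79 and 11.5 CPM in the 3 neutrophil libraries and 415, 581 and 393 CPM in the 3 macrophage libraries (log2 difference −5.29), and 37% of the 3′ 31-base sequences of *Lyz1* also occur in another gene, mainly *Lyz2*, so reads may have been split between them.

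Antigen presentation genes were mostly higher in macrophages (10 of 13). *H2-Aa* was at 108, 96.9 and 115 CPM in the 3 neutrophil libraries and 1502, 1538 and 1507 CPM in the 3 macrophage libraries (log2 difference −3.84, SE 0.111, adjusted p = 1.34e-15). Other members with large differences included *H2-Eb1* (−3.85), *H2-Ab1* (−3.55) and *H2-DMb1* (−3.11). The exceptions were *Icosl* (4.02) and *H2-DMb2* (2.15), a costimulatory ligand and a chain of the factor that loads peptides onto class II molecules. The common leukocyte antigen gene *Ptprc* (CD45) was at 519.6 ± 27.4 against 185 ± 23.2 CPM (2.82-fold higher in neutrophils).

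Markers of other marrow cells moved with the neutrophil group. All 9 tested erythroid genes were higher in neutrophils, and the list of 10 genes summed to 6784, 7679 and 6048 CPM in neutrophil libraries and 23.8, 26 and 22.3 CPM in macrophage libraries. Its most abundant gene was *Hbb-bs*, beta globin, at 3773, 4359 and 3329 CPM in the 3 neutrophil libraries and 12.6, 12.3 and 10.1 CPM in the 3 macrophage libraries, which shares 66.2% of its 3′ 31-base sequences with other genes. Haemoglobin genes took 0.577% to 0.652% of neutrophil counts. All 10 B and plasma cell genes were also higher, summing to 2617, 2501 and 2771 and 145, 158 and 163 CPM. The most abundant was the kappa light chain *Igkc*, and *Cd79a*, *Ms4a1*, *Pax5* and *Vpreb3* were at 0 in macrophages. *Vpreb3*, a gene of developing B cells, was at least 134-fold higher.

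Genes of other granulocytes were higher in neutrophil libraries too. Of 7 tested eosinophil genes, 6 were higher in neutrophils (summed CPM 639, 716 and 627 against 22.1, 19.4 and 21.9). Major basic protein (*Prg2*) was the most abundant, with a log2 difference of 7.58, and *Siglecf* (1.73) and *Ear2* (0.98) were higher by less. *Epx* was at least 89.3-fold higher, and *Ear6* and *Ear1* had 2 and 1 counts in macrophages (ratio 140.2, with a 95% counting interval of 38.4 to 1164, and ratio 129, with a 95% counting interval of 22.8 to 5146). *Ear1* and *Ear2* share 77.7% and 57.7% of their 3′ 31-base sequences with another gene, mainly each other, so reads may have been split between them. *Ccr3* (−1.53) was higher in macrophages. *Epx* and *Il5ra* were at 0 in macrophages. All 7 basophil and mast cell genes tested were higher in neutrophils (summed CPM 1536, 1559.9 and 1308 against 13.8, 16.2 and 15.8). The basophil proteases *Prss34* and *Mcpt8* stood at 630.0 ± 63 against 7.4 ± 1.49 CPM and 425 ± 48.8 against 4.6 ± 1.25 CPM. Another member, *Hdc* (8.42), is also counted among the neutrophil surface and cytosolic markers, so it does not mark basophils and mast cells alone. The others were *Kit* (5.39), *Ms4a2* (4.85), *Cpa3* (4.79) and *Fcer1a* (4.47), and *Gata2* was not tested. No gene of the basophil and mast cell list was at 0 in all 3 macrophage libraries. However, *Fcer1a* was at 0 in macrophage library 3, and *Kit* and *Ms4a2* each had 1 count over the 3.

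Few T and NK cell genes had enough counts for a test. Of 12 members, 10 had too few counts to be tested. Of these, *Cd3e*, *Cd3g*, *Trac* and *Trbc2* were at 0 in macrophages, but *Cd3e* had only 0, 0 and 1 counts in the 3 neutrophil libraries. In the other direction, *Cd4* was at 0 in neutrophils, and *Klrb1c* stood there at 20.6% of its macrophage level. *Ncr1* was at 0 in both. *Nkg7* was at 103 ± 5.75 against 0.195 ± 0.169 CPM and *Cd3d* at 18.1 ± 1.81 against 0 ± 0 CPM, and the list summed to 122, 129 and 137 CPM in neutrophils and 2.87, 2.09 and 3.95 CPM in macrophages. Progenitor genes were higher in neutrophils for 5 of 6 tested (summed CPM 84.5, 83.2 and 90.6 against 36.4, 31.1 and 52.1). The progenitor factor *Myb* was at 25.2, 25.1 and 28.1 CPM in neutrophils and at 0 in macrophages (at least 83.4-fold higher). *Kit* (5.39), *Gfi1b* (5.08) and *Cd34* (3.59) were also higher in neutrophils, and *Sox4* (−1.38) was higher in macrophages, where it was the most abundant gene of the list. *Gfi1b* had only 2 counts in macrophages (ratio 52.6, with a 95% counting interval of 14.2 to 441).

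Platelet, dendritic and stromal markers were mixed. Platelet genes summed to 208, 212 and 201 CPM in neutrophils and 663, 1008 and 698 CPM in macrophages, mostly from platelet factor 4 (*Pf4*), which myeloid cells also make and which was at 143, 143 and 141 CPM in the 3 neutrophil libraries and 629.8, 973 and 673 CPM in the 3 macrophage libraries (log2 difference −2.39, SE 0.143, adjusted p = 4.30e-11). *Itgb3* (5.24), *Itga2b* (3.21) and *Ppbp* (2.28) were higher in neutrophils and *Gng11* (−2.30) in macrophages, and *Gp1bb*, *Gp9* and *Gp5* were at 0 in macrophages. Among dendritic cell genes (summed CPM 97.1, 106 and 98.9 against 305, 272 and 259.5), *Flt3* (3.31) and *Cd209a* (2.33) were higher in neutrophils and *Bst2* (−2.23) and *Batf3* (−4.18) in macrophages, and *Xcr1* was at 0 in macrophages. Stromal and endothelial genes summed to 109.8, 117 and 129.8 and 57.9, 61.9 and 83.4 CPM, with *Pecam1* (3.80) and *Col1a1* (2.35) higher in neutrophils and *Emcn* at 0 in both. Over the 56 tested markers of other cells, 46 were higher in neutrophils and 8 in macrophages. The part of these cells in the other differences below was not tested.

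The receptors of the lineage growth factors ran in opposite directions. *Csf3r*, the G-CSF receptor (ENSMUSG00000028859, chromosome 4, from 126024550 to 126044440), was at 329, 337 and 308 CPM in the 3 neutrophil libraries and 36.7, 34.7 and 44.6 CPM in the 3 macrophage libraries (log2 difference 3.08, SE 0.135, adjusted p = 5.23e-13). *Csf1r*, the M-CSF receptor (ENSMUSG00000024621), was at 199, 217 and 186 CPM in the 3 neutrophil libraries and 761, 648 and 912 CPM in the 3 macrophage libraries (log2 difference −1.94, SE 0.128, adjusted p = 1.66e-10). The macrophage libraries held 11.9% of the neutrophil level of *Csf3r* and the neutrophil libraries 25.9% of the macrophage level of *Csf1r*. Over all 30 tested growth factor and cytokine receptors, 15 were higher in neutrophils and 10 in macrophages. Receptors of the interleukin-1 and interleukin-18 family led the neutrophil side. *Il18rap* was at 84.6 ± 2.92 against 0.701 ± 0.404 CPM and its partner *Il18r1* had 65 counts against 0 (at least 22.6-fold higher), and the decoy receptor *Il1r2* was at 173, 143 and 135 CPM in the 3 neutrophil libraries and 2.01, 2.69 and 3.23 CPM in the 3 macrophage libraries (log2 difference 5.78, SE 0.334, adjusted p = 2.65e-11). On the macrophage side, after *Csf1r*, stood the interleukin-10 receptor chain *Il10rb* (−1.497) and the signal transducer *Il6st* (−1.48), both by over 2-fold, then *Tgfbr2* (−1.06), *Csf2rb2* (−0.94), *Il2rg* (−0.93), *Tnfrsf1b* (−0.85), *Tgfbr1* (−0.61), *Il3ra* (−0.59) and *Il10ra* (−0.50), of which *Il3ra* passed in 11 of 18 alternatives to the processing. In the 6 CGRP libraries *Tgfbr1* was at 0.0846.

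Chemokine receptors divided between the cell types. *Cxcr2*, the receptor for CXCL1 and CXCL2, was at 585, 621 and 508 CPM in the 3 neutrophil libraries and 0.86, 0.898 and 0.719 CPM in the 3 macrophage libraries (log2 difference 9.18, SE 0.445, adjusted p = 2.22e-12). *Cxcr4*, which retains cells in the marrow, was at 49.2 ± 12.2 against 9.94 ± 0.807 CPM (4.8-fold higher in neutrophils). The fractalkine receptor *Cx3cr1*, commonly used as a macrophage gene, was at 82, 86.2 and 99.6 CPM in the 3 neutrophil libraries and 63.3, 56.9 and 71.9 CPM in the 3 macrophage libraries and was slightly higher in neutrophils (log2 difference 0.48, SE 0.136, adjusted p = 0.0042). Genes higher in macrophages included *Ccr7* (−1.70), *Ccr3* (−1.53) and *Ccrl2* (−0.74). In all, 5 of the 10 tested chemokine receptors were higher in neutrophils and 4 in macrophages.

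Receptors for other attractants also divided between the cell types. Formyl peptide receptors *Fpr1* and *Fpr2*, which sense bacterial peptides, were at 306 ± 11 against 4.14 ± 2.26 CPM and 192 ± 14.8 against 2.19 ± 1.16 CPM. *Ltb4r1*, the high-affinity leukotriene B4 receptor, was at 324, 325 and 365 CPM in the 3 neutrophil libraries and 2.01, 1.2 and 0.719 CPM in the 3 macrophage libraries (log2 difference 7.91, SE 0.403, adjusted p = 4.52e-12), and the sphingosine phosphate receptor *S1pr4* was 284-fold higher in neutrophils. Other receptors of the same ligand class were higher in macrophages, *S1pr2* (−3.13) and *S1pr1* (−2.24). For complement fragments, *C3ar1* was at 24.6, 30.6 and 30.9 CPM in the 3 neutrophil libraries and 734, 641 and 860.1 CPM in the 3 macrophage libraries (log2 difference −4.69, SE 0.16, adjusted p = 1.60e-14), whereas *C5ar1* was at 860.0 ± 44.1 against 651 ± 122 CPM (log2 difference 0.42). *Cmklr1*, the chemerin receptor, was 20.7-fold higher in macrophages. The count was 7 of 15 higher in neutrophils and 8 higher in macrophages.

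Microbe sensors were higher in macrophages for some genes and in neutrophils for others. Of 20 tested genes, 10 were higher in macrophages, led by *Tlr1* (−3.49), *Cd180* (−2.67), *Tlr8* (−2.65) and *Tlr7* (−2.03), and 6 were higher in neutrophils: *Nlrp12* (7.92), *Tlr5* (4.63), *Nod1* (2.33), *Nlrp3* (1.48), *Naip2* (1.05) and *Myd88* (0.57). *Myd88* overlaps *Acaa1a* on the opposite strand, which had more counts. *Nlrp12*, an intracellular NOD-like receptor, was at 38.8, 40.1 and 34.2 CPM in neutrophils and 0 in macrophages (at least 121-fold higher). *Tlr5*, the flagellin receptor, had 35 counts against 0. Of the 16 C-type lectins tested, 9 were higher in macrophages, led by *Clec4b1* (−4.61), *Colec12* (−3.58), *Mrc1* (−3.46) and *Cd302* (−3.15), and 4 in neutrophils, *Clec5a* (3.39), *Cd209a* (2.33), *Clec4e* (2.01) and *Mgl2* (1.19). *Clec5a* was at 164 ± 2.64 against 15.5 ± 2.22 CPM. Among the 6 Fc receptor genes, the high-affinity receptor *Fcgr1* was at 12.3, 9.17 and 14 CPM in the 3 neutrophil libraries and 171, 162 and 161 CPM in the 3 macrophage libraries (log2 difference −3.81, SE 0.19, adjusted p = 3.29e-12). It was followed by *Fcgrt* (−2.45), *Fcgr2b* (−0.84), *Fcgr4* (−0.60) and *Fcer1g* (−0.36), all higher in macrophages. *Fcgr3* was at 1008 ± 74.3 against 1144 ± 198 CPM and did not pass (log2 difference −0.17, 95% interval −0.43 to 0.08, adjusted p = 0.219), but it passed when the replicate numbers were used as a block (adjusted p = 0.0475 with limma).

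Receptors for dead cells and lipids were among the clearest macrophage groups (13 of 18 tested, median −2.10). The fatty acid and lipoprotein receptor *Cd36* was at 25.2, 29.4 and 29.1 CPM in the 3 neutrophil libraries and 1353, 1633 and 1267 CPM in the 3 macrophage libraries (log2 difference −5.66, SE 0.154, adjusted p = 5.52e-16). The efferocytosis kinases *Mertk* and *Axl* were at 0.869 ± 0.786 against 31.1 ± 14.5 CPM and 5.87 ± 1.65 against 190.3 ± 39 CPM, and sialoadhesin (*Siglec1*) had 2 counts in neutrophils and 102 in macrophages (ratio 48.9, with a 95% counting interval of 13.2 to 409). Against the list's direction, *Cd300lf* was at 202 ± 22.1 against 4.21 ± 2.88 CPM and *Olr1* (3.73) was higher in neutrophils, as was *Cd163*. Of 15 integrin genes tested, 9 were higher in neutrophils and 5 in macrophages. *Itgb2l* (10.25), *Itga1* (5.39), *Itgb3* (5.24) and *Itgal* (3.37) led in neutrophils, and those higher in macrophages were *Itga6* (−3.16), *Itgb5* (−2.85), *Itgax* (−2.49), *Itgav* (−2.11) and *Itgb1* (−1.92). *Itgam* (CD11b), shared by both lineages, was at 524 ± 23.2 against 208 ± 26.1 CPM (2.53-fold higher in neutrophils).

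The subunits of the CGRP receptor were present in both cell types before any CGRP was given. *Ramp1*, the accessory protein that gives the receptor its specificity, was at 248, 276 and 263 CPM in the 3 neutrophil libraries and 105, 133 and 109 CPM in the 3 macrophage libraries (log2 difference 1.18, SE 0.121, adjusted p = 7.36e-08; chromosome 1, from 91179822 to 91225196). *Calcrl*, the receptor's transmembrane subunit, was at 30.3, 25.7 and 34.5 CPM in the 3 neutrophil libraries and 19.5, 21.8 and 12.6 CPM in the 3 macrophage libraries (log2 difference 0.74, SE 0.211, adjusted p = 0.00459; chromosome 2, from 84330626 to 84425411). All neutrophil libraries were above all macrophage libraries for both genes, and neither passed the test for over 2-fold. *Crcp*, an intracellular component, was at 58.3 ± 2.14 against 62.9 ± 9.33 CPM and did not pass (95% interval −0.40 to 0.19, adjusted p = 0.528). *Ramp3* was at 1.89, 1.53 and 1.8 CPM in neutrophils and 1.43, 1.8 and 0.719 CPM in macrophages, too low to be tested, and *Ramp2* and *Calcr* had no counts in any of the 6 libraries. Over all 131 tested receptor genes, 51 were higher in neutrophils and 62 in macrophages, a called share of 86.3% against 68.5% of all genes.

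**Figure D3:**
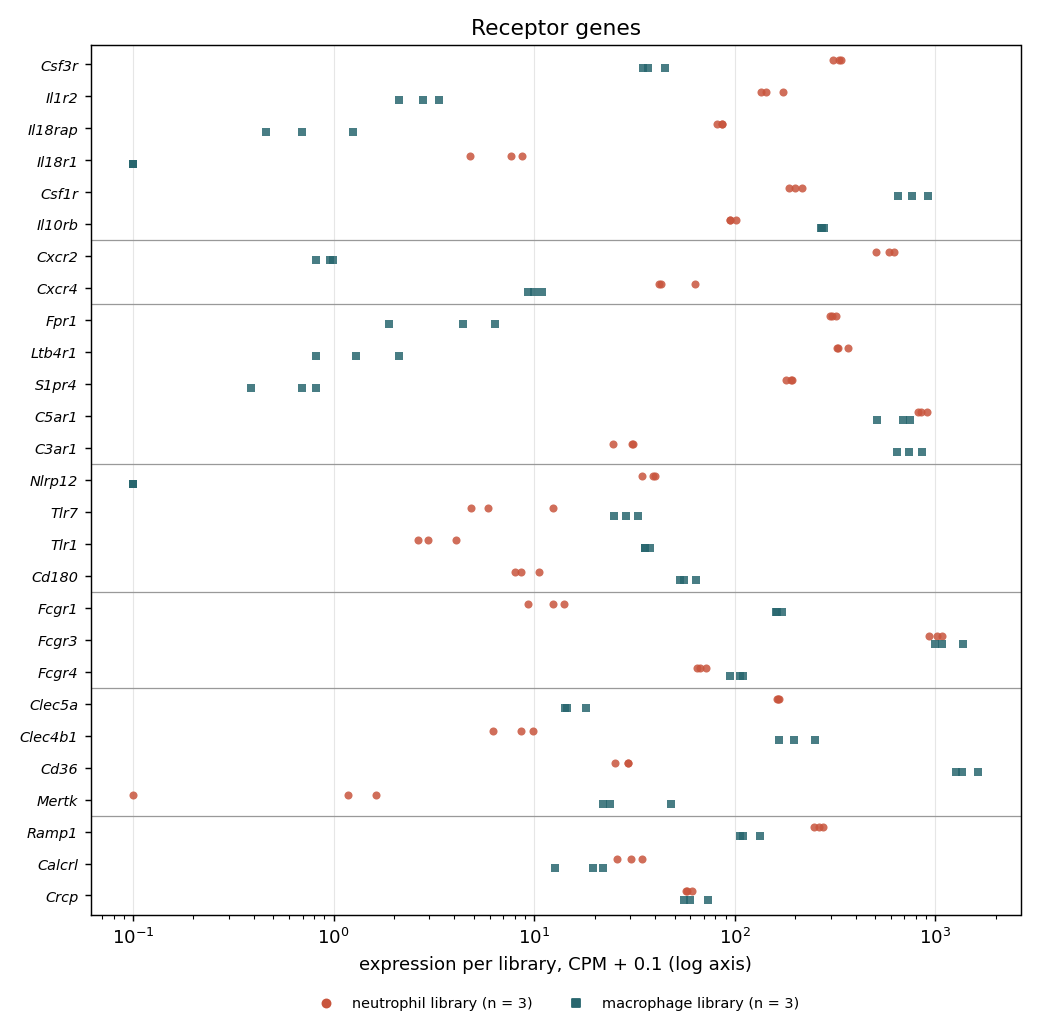
Expression of 27 receptor genes in each saline library (CPM + 0.1, log axis; red circles neutrophil, teal squares macrophage, 3 libraries each). The blocks hold cytokine, chemokine, attractant, microbe-sensing, Fc, lectin and scavenger, and CGRP receptor genes; Cxcr2 averages 571 CPM in neutrophils and 0.825 in macrophages, Cd36 27.9 and 1418, and Ramp1 262 and 116.

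Transcription factor genes as a group were called about as often as all genes (72.9% of 85, with 44 higher in neutrophils and 18 in macrophages), and 31.8% passed the over 2-fold test against 25.8% of all genes. *Cebpe*, the C/EBP factor required for late granule formation, was at 343, 358 and 311 CPM in the 3 neutrophil libraries and 1.15, 0.598 and 0.359 CPM in the 3 macrophage libraries (log2 difference 8.69, SE 0.47, adjusted p = 9.86e-12; chromosome 14, from 54710360 to 54712174). *Mxd1*, a MYC antagonist of differentiating granulocytes, was at 635, 616 and 614 CPM in the 3 neutrophil libraries and 7.45, 4.79 and 7.91 CPM in the 3 macrophage libraries (log2 difference 6.54, SE 0.225, adjusted p = 1.79e-14). *Klf5* had 247 counts in neutrophils and 3 in macrophages (ratio 85.8, with a 95% counting interval of 29 to 419). The granulocyte repressor *Gfi1* had 42 counts against 0 (at least 14.6-fold higher). In all, 5 of the 11 tested granulocyte factor genes were higher in neutrophils, and the other 6 did not pass (median of the list 0.416). Among the 7 C/EBP genes, *Cebpd* (3.53), *Ddit3* (1.35), *Cebpz* (0.71) and *Cebpb* (0.38) were also higher in neutrophils, and *Cebpa*, which acts earlier in the lineage, was at 14.5, 15.6 and 30.2 CPM in the 3 neutrophil libraries and 42.7, 32.6 and 90.2 CPM in the 3 macrophage libraries (higher in macrophages; log2 difference −1.39, SE 0.322, adjusted p = 0.000894). *Cebpb* was at 114 ± 20.9 against 88.1 ± 18.1 CPM with overlapping libraries (adjusted p = 0.0406, past the threshold in 10 of 18 alternatives, and at −0.203 in the 6 CGRP libraries), and *Cebpg* (−0.01) did not pass (95% interval −0.31 to 0.28). On the opposite strand *Cebpb* overlaps *Tmem189*, and *Ddit3* overlaps *Mars*, which had slightly more counts than *Ddit3*.

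Macrophage lineage factors were higher in macrophages for 13 of 21 tested genes. The oxysterol sensor LXR alpha (*Nr1h3*) was at 2.52, 1.83 and 1.44 CPM in the 3 neutrophil libraries and 62.8, 73.9 and 67.6 CPM in the 3 macrophage libraries (log2 difference −5.04, SE 0.354, adjusted p = 4.11e-10). *Maf*, a factor of differentiated macrophages, was at 12.8 ± 3.5 against 199.9 ± 30 CPM. *Pparg*, a lipid-sensing nuclear receptor, was at 3.95 ± 0.972 against 72.1 ± 10.1 CPM, 17.9-fold higher. Other leading genes were *Bhlhe41* (−5.02), *Egr2* (−4.73) and *Batf3* (−4.18). Of these, *Bhlhe41* had only 3 counts in neutrophils (ratio 42.2, with a 95% counting interval of 14.1 to 207). Those against the direction were *Klf4* (3.18), *Bhlhe40* (0.95), *Nr1h2* (0.76), *Nr4a1* (0.63) and *Bach1* (0.38), among them LXR beta (*Nr1h2*), and *Nr4a1* passed in 13 of 18 alternatives. The direction of *Nr4a1* turned in the 6 CGRP libraries (−0.427). *Irf8*, which favours monocytes over granulocytes, was at 139, 113 and 147 CPM in the 3 neutrophil libraries and 251, 291 and 336 CPM in the 3 macrophage libraries (log2 difference −1.14, SE 0.134, adjusted p = 5.00e-07).

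Factors that respond to signals also differed by family. Of the 12 Krüppel-like genes tested, 10 were higher in neutrophils, led by *Klf5* (6.12), *Klf1* (4.94), *Klf2* (3.97) and *Klf4* (3.18), of which *Klf1* is an erythroid factor. Of the 7 STAT genes, 6 were higher in neutrophils, among them *Stat4* (5.72), *Stat5b* (1.17) and *Stat3* (1.17). *Stat2* (−0.43) did not pass (adjusted p = 0.0537), but did with the replicate block (adjusted p = 0.0319). Of the 12 NF-kB subunits and inhibitors, 7 were higher in neutrophils and none in macrophages, and the inhibitor genes *Nfkbia* and *Nfkbiz* passed the test for over 2-fold, at 471 ± 14.2 against 136 ± 9.32 CPM and 25.9 ± 2.85 against 8.28 ± 0.715 CPM. In the AP-1 group the direction depended on the member. *Atf3* was at 18.9, 14.1 and 16.5 CPM in the 3 neutrophil libraries and 239, 287 and 225 CPM in the 3 macrophage libraries (log2 difference −3.91, SE 0.181, adjusted p = 1.13e-12), and *Jun* (−1.87) and *Fos* (−1.58) were also higher in macrophages, while *Mafg* (2.25) and *Fosl2* (1.90) were higher in neutrophils. *Mafg* overlaps *Sirt7* on the same strand, which had more counts. Of 8 interferon regulatory factors, 4 were higher in neutrophils and *Irf5* (−0.70) and *Irf8* (−1.14) were higher in macrophages. The log2 differences of this list ran from −1.14 to 2.33, and no member passed the over 2-fold test.

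**Figure D4:**
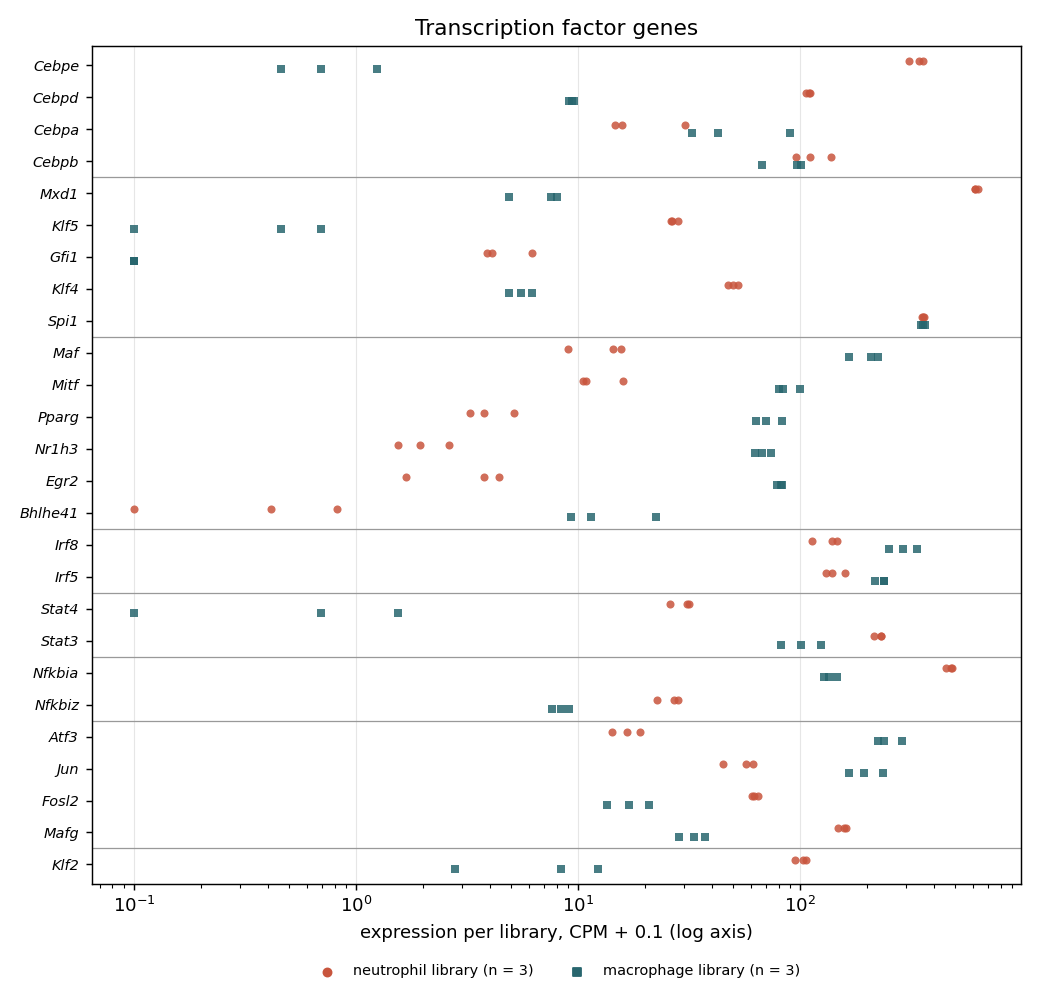
Expression of 26 transcription factor genes in each saline library (CPM + 0.1, log axis; red circles neutrophil, teal squares macrophage, 3 libraries each). The blocks hold C/EBP, granulocyte, macrophage, IRF, STAT, NF-kB, AP-1 and Krüppel-like genes; Cebpe averages 337 CPM in neutrophils and 0.701 in macrophages, Nr1h3 1.93 and 68.1, and the Spi1 libraries overlap.

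Sugar metabolism leaned to neutrophils. Of 24 glycolysis genes, 13 were higher in neutrophils and 7 in macrophages. The glucose transporter *Slc2a3* (GLUT3) was at 287, 288 and 281 CPM in the 3 neutrophil libraries and 2.01, 0.598 and 0.719 CPM in the 3 macrophage libraries (log2 difference 7.96, SE 0.428, adjusted p = 9.27e-12; chromosome 6, from 122727809 to 122801640), while *Slc2a1* (GLUT1) was at 9.15, 10.7 and 9.71 CPM in the 3 neutrophil libraries and 24.7, 20.6 and 29.5 CPM in the 3 macrophage libraries (log2 difference −1.30, SE 0.226, adjusted p = 5.23e-05). The lactate exporter *Slc16a3* was at 303 ± 12.2 against 34.7 ± 3.02 CPM, and *Gpi1* (2.18) and *Hk2* (2.17), phosphoglucose isomerase and hexokinase 2, followed. The others higher in macrophages were *Aldoc* (−2.43), *Eno3* (−1.14), *Pfkm* (−1.07), *Ldhb* (−1.03), *Tpi1* (−0.90) and *Ldha* (−0.37), of which *Pfkm* passed in 9 of 17 alternatives and overlaps *Senp1* on the opposite strand, with more counts. Glycogen genes were higher in neutrophils for 10 of 14. Liver-type glycogen phosphorylase (*Pygl*) was at 749, 793 and 622 CPM in the 3 neutrophil libraries and 46.1, 39.2 and 51 CPM in the 3 macrophage libraries (log2 difference 3.99, SE 0.141, adjusted p = 2.45e-14), glycogen synthase (*Gys1*) at 187 ± 8.38 against 13 ± 2.45 CPM, and the phosphatase targeting subunits *Ppp1r3d* (3.23) and *Ppp1r3b* (3.05) were higher as well. Acid alpha-glucosidase (*Gaa*, −2.29), which breaks glycogen down in lysosomes, *Pygb* (−1.25) and *Phka2* (−1.02) were higher in macrophages.

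Most genes of the pentose phosphate pathway, which makes NADPH, and of the NADPH oxidase were higher in neutrophils. Of 8 pentose phosphate genes, 6 were higher in neutrophils, *Rpia* (3.56), *Tkt* (1.62), *Taldo1* (1.40), *Pgd* (1.37), *G6pdx* (1.03) and *Rpe* (0.74), and *H6pd* (0.28) and *Pgls* (−0.08) did not pass. *Pgd* was at 644, 652 and 673 CPM in the 3 neutrophil libraries and 260.0, 209.8 and 302 CPM in the 3 macrophage libraries. Of the 7 oxidase genes, 5 were higher in neutrophils, among them *Ncf1* (3.26), *Rac2* (3.00) and *Ncf4* (2.08) and the membrane subunit gene *Cybb* (1.22), and *Rac1* (−0.57) and *Cyba* (−0.48) were higher in macrophages. *Ncf1* (p47phox) was at 1266, 1267 and 1170.3 CPM in the 3 neutrophil libraries and 136, 108 and 146 CPM in the 3 macrophage libraries (log2 difference 3.26, SE 0.122, adjusted p = 5.19e-14). *Rac1* overlaps *Daglb* on the opposite strand, which had nearly as many counts. Antioxidant genes divided, as 9 of 29 were higher in neutrophils, with *Mgst2* (6.89), *Gsr* (4.10), *Prdx6* (2.03) and *Prdx5* (1.93) by over 2-fold, and 15 in macrophages, led by *Prdx1* (−4.03), *Cat* (−2.19), *Srxn1* (−2.10) and *Hmox1* (−1.93). Glutathione reductase (*Gsr*) was at 477 ± 37.3 against 27.9 ± 4.18 CPM and peroxiredoxin 1 (*Prdx1*) at 396, 399 and 395 CPM in the 3 neutrophil libraries and 6241, 8017 and 5402 CPM in the 3 macrophage libraries (log2 difference −4.03, SE 0.128, adjusted p = 5.66e-15). The other antioxidant genes higher in neutrophils were *Nqo1* (1.85), *Slc7a11* (1.33), *Mgst1* (0.98), *Gpx1* (0.87) and *Txn1* (0.38), and *Txn1* passed in 13 of 18 alternatives.

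Mitochondrial genes leaned to macrophages by small amounts. Of 78 nuclear subunits of oxidative phosphorylation, 54 were higher in macrophages and 2 in neutrophils, with a median log2 difference of −0.52 where all genes had 0.0296. Only 4 were higher by over 2-fold, *Cox7a1* (−2.99), *Uqcr11* (−1.39), *Ndufc1* (−1.36) and *Ndufa5* (−1.35), and the exceptions were *Cox6b2* (2.64) and *Cox6a2* (1.74). *Cox7a1*, *Cox6b2* and *Cox6a2*, which had the largest differences, all encode tissue-restricted isoforms of cytochrome oxidase subunits. The tricarboxylic acid cycle list, which also holds genes of cytosolic enzymes, was higher in macrophages for 14 of 28. The only 2 past the over 2-fold test were *Idh1* (−2.17) and *Aco1* (−1.996), both of which encode cytosolic forms. In neutrophils 4 were higher: *Dlst* (1.12), *Mdh2* (0.84), the pyruvate carrier gene *Mpc2* (0.76) and the cytosolic *Acly* (0.36). Of these, *Acly*, with overlapping libraries, passed in 9 of 18 alternatives. Fatty acid oxidation genes were higher in macrophages for 15 of 19 and in neutrophils for none, led by *Decr1* (−2.07) and *Hadh* (−1.56). *Decr1* was at 6.31, 9.17 and 11.1 CPM in the 3 neutrophil libraries and 36.4, 36.5 and 36.7 CPM in the 3 macrophage libraries. Of the 7 mitochondrially encoded genes tested, 3 were higher in macrophages and *mt-Co1* was higher in neutrophils (0.71), but 95.5% of its 3′ 31-base sequences also occur in a nuclear pseudogene.

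Cholesterol and lipoprotein genes were a macrophage group. Synthesis genes were higher in macrophages for 18 of 22 and in neutrophils for none, led by *Lss* (−2.62), *Cyp51* (−2.57), *Sqle* (−2.40) and *Dhcr7* (−2.35). *Cyp51*, lanosterol demethylase, was at 12.9, 16.2 and 12.9 CPM in the 3 neutrophil libraries and 94.9, 92.2 and 66.9 CPM in the 3 macrophage libraries and overlaps *Akap9* on the opposite strand, with almost as many counts. Efflux and lipoprotein genes were higher in macrophages for 14 of 16, led by *Lpl* (−6.26), *Cd36* (−5.66), *Nr1h3* (−5.04) and *Pltp* (−4.81). *Pltp* overlaps *Ctsa* on the opposite strand, which had more counts. *Apoe* was at 1246, 1238 and 1248 CPM in the 3 neutrophil libraries and 23528, 27368 and 23194 CPM in the 3 macrophage libraries (log2 difference −4.31, SE 0.104, adjusted p = 8.55e-17). The exception, *Abca7*, was at 77.6 ± 9.87 against 13.6 ± 1.24 CPM (5.65-fold higher in neutrophils). Lipid droplet genes were higher in neutrophils for 6 of 12 and in macrophages for 2. *Dgat2*, which makes triacylglycerol, was at 172, 185 and 178 CPM in the 3 neutrophil libraries and 0.86, 1.8 and 2.16 CPM in the 3 macrophage libraries (log2 difference 6.78, SE 0.376, adjusted p = 1.48e-11), and *G0s2* (6.91), *Mgll* (3.59) and *Dgat1* (2.85) were also higher in neutrophils, while the coat protein gene *Plin2* was at 140.0, 148 and 169.8 CPM in the 3 neutrophil libraries and 961, 965 and 864 CPM in the 3 macrophage libraries (log2 difference −2.61, SE 0.114, adjusted p = 5.04e-13) and *Lpin1* (−1.67) was higher in macrophages.

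Lysosomal genes were higher in macrophages across 3 lists, some of whose members, such as *Ctsb* and *Cd68*, are also counted among the macrophage markers. The vacuolar ATPase, which acidifies lysosomes, had 12 of 16 subunits higher in macrophages and none in neutrophils. *Atp6v0d2*, an alternative d subunit known in osteoclasts and macrophages, was at 1.58, 3.98 and 2.52 CPM in the 3 neutrophil libraries and 532, 608 and 584 CPM in the 3 macrophage libraries (log2 difference −7.74, SE 0.337, adjusted p = 5.17e-13; chromosome 4, from 19876841 to 19922605), and *Atp6v1c1* (−2.29), *Atp6v0a1* (−2.12) and *Atp6v1a* (−2.08) followed. Cathepsins were higher in macrophages for 12 of 14, led by *Ctsb* (−4.46), *Ctss* (−4.28), *Ctsl* (−4.27) and *Lgmn* (−3.62), and *Ctsg* (7.25) and *Ctse* (6.15) were the exceptions. *Ctsb* was at 779, 736 and 689 CPM in the 3 neutrophil libraries and 16303, 17165 and 15218 CPM in the 3 macrophage libraries. Hydrolases and membrane proteins were higher for 34 of 43, led by *Lipa* (−4.36), *Cd68* (−3.58), *Gla* (−2.66) and *Cd63* (−2.53), and the exception was *Arsb* (1.83), arylsulfatase B. *Lipa*, the acid lipase that frees cholesterol from lipoproteins, was at 49.8, 59.9 and 62.9 CPM in the 3 neutrophil libraries and 1175, 1014 and 1380.2 CPM in the 3 macrophage libraries (log2 difference −4.36, SE 0.142, adjusted p = 7.60e-15).

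An E-box form that factors of the MITF and TFE family bind, TCACGTGA (its own reverse complement), was searched in the same promoter windows. It was in 8 of the 67 genes of the 3 lists with a promoter in the table (11.9%), in 2.47% of the tested genes, in 1.12% of all genes of the table and in none of the 21 granule gene promoters. The stretches below show it in capitals in 4 genes that were higher in macrophages and in *Cln3*, which did not pass.
Atp6v1a (chr16:44139358-44139417, minus strand): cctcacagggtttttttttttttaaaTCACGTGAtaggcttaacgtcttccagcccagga
Ctsd (chr7:142387893-142387952, minus strand): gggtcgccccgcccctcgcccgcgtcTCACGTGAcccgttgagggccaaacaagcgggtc
Gla (chrX:134601167-134601226, minus strand): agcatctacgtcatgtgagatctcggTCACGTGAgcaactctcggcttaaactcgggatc
Mcoln1 (chr8:3500447-3500506, plus strand): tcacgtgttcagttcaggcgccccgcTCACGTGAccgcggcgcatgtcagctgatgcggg
Cln3 (chr7:126583325-126583384, minus strand): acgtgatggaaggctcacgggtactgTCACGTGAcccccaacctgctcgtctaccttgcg
The log2 differences of these genes were −2.08 for the ATPase subunit *Atp6v1a*, −2.94 for cathepsin D (*Ctsd*), −2.66 for alpha-galactosidase (*Gla*), −2.06 for the calcium channel *Mcoln1* and −0.13 for *Cln3* (95% interval −0.41 to 0.15, adjusted p = 0.39). *Cln3* overlaps *Apobr* on the opposite strand, which had more counts. The window of *Gla* held the motif at 2 places, of which the nearer to the start site is printed. Among the factors themselves, *Mitf* was at 15.8, 10.4 and 10.8 CPM in the 3 neutrophil libraries and 80.3, 84.1 and 100.3 CPM in the 3 macrophage libraries (log2 difference −2.83, SE 0.204, adjusted p = 5.85e-10), *Tfe3* was at 62.7 ± 3.68 against 83.2 ± 10.7 CPM (log2 difference −0.40) and *Tfeb* at 43.5 ± 6.88 against 34.3 ± 9 CPM (log2 difference 0.37, adjusted p = 0.0787, and 0.0376 with the replicate block).

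Iron genes were higher in macrophages for 13 of 18, led by *Steap3* (−3.26), *Blvra* (−2.84), *Trf* (−2.81) and *Slc11a2* (−2.77), and the ferritin heavy chain *Fth1* was at 3508 ± 338 against 23176 ± 3403 CPM. The 4 higher in neutrophils were the granule proteins *Ltf* and *Lcn2*, the exporter *Slc40a1*, and *Ireb2* (0.72), which passed in 14 of 18 alternatives. Of 13 arachidonate genes, 5 were higher in neutrophils and 4 in macrophages. *Alox5*, the 5-lipoxygenase of leukotriene synthesis, was at 253, 253 and 274 CPM in the 3 neutrophil libraries and 0.287, 1.2 and 1.8 CPM in the 3 macrophage libraries (log2 difference 8.00, SE 0.468, adjusted p = 3.15e-11), and *Lta4h*, which completes leukotriene B4, was at 563 ± 6 against 55 ± 8.98 CPM. *Mgst2* (6.89) and *Ptgs1* (2.86) were also higher in neutrophils. *Hpgds* was at 2.21, 2.75 and 2.52 CPM in the 3 neutrophil libraries and 228, 277 and 226 CPM in the 3 macrophage libraries (log2 difference −6.52, SE 0.333, adjusted p = 4.53e-12), and thromboxane synthase (*Tbxas1*, −3.59), *Pla2g7* (−1.82) and *Ptges3* (−0.84) were higher in macrophages. Over all 382 tested metabolism genes, 81 were higher in neutrophils and 216 in macrophages, a called share of 77.7% against 68.5% of all genes.

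**Figure D5:**
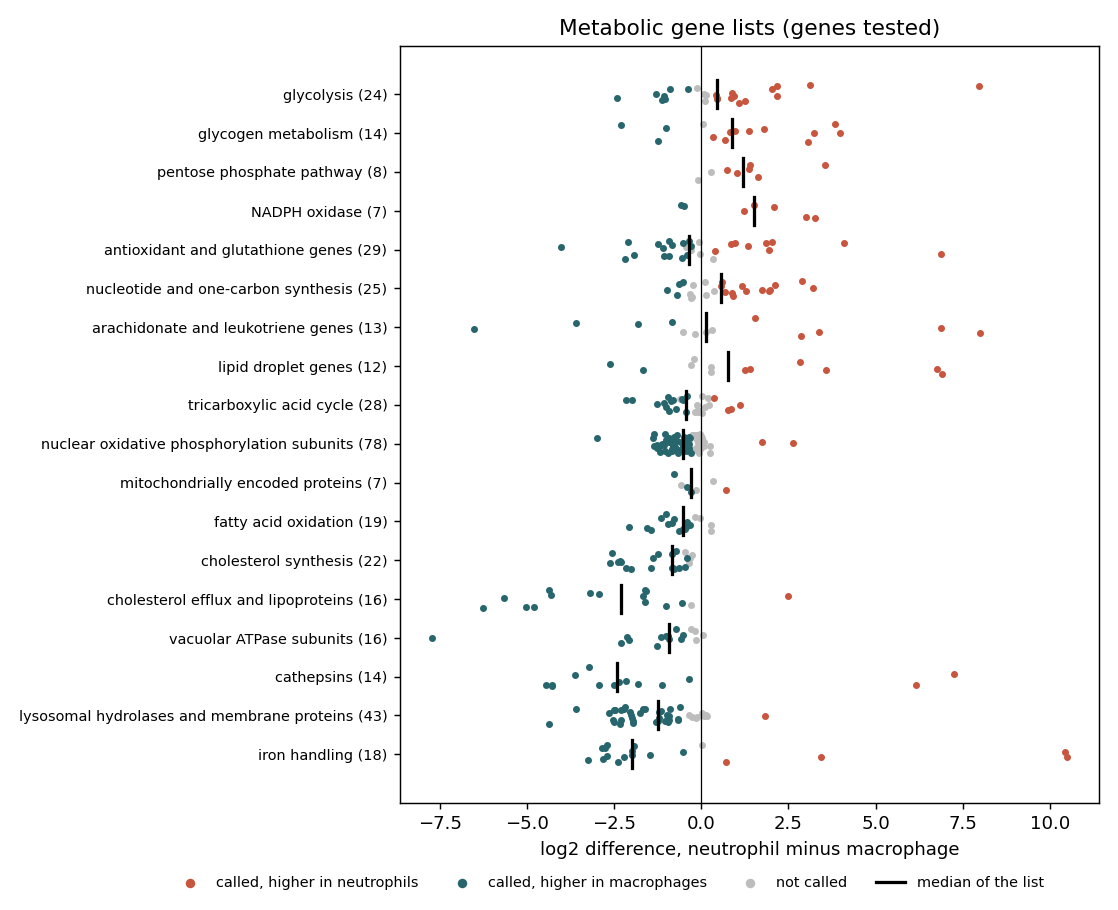
Log2 difference (neutrophil minus macrophage) of each tested gene in 18 metabolic lists, with the number tested in parentheses, red for genes called higher in neutrophils, teal for macrophages, grey for genes not called, and a black bar at the list's median. The cathepsins have a median of −2.43, and oxidative phosphorylation subunits lie close together around −0.52.

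Cell cycle genes were higher in neutrophils for 34 of 38 tested, 25 of them by over 2-fold (median 1.98). *Mki67*, a proliferation marker, was at 116, 107 and 92.4 CPM in the 3 neutrophil libraries and 15.5, 10.2 and 9.7 CPM in the 3 macrophage libraries (log2 difference 3.15, SE 0.206, adjusted p = 1.50e-10), and the leading genes were *Ccnd3* (4.27), *Cdkn2d* (3.53), *Cdc20* (3.25) and *Rrm2* (3.205), of which *Cdkn2d* encodes a cell cycle inhibitor of maturing cells. The 4 higher in macrophages were *Ccnd1* (−3.70), *Pcna* (−1.11), *Cdkn1a* (−0.59) and *Cdk4* (−0.56). Cyclin D1 (*Ccnd1*) was at 5.05, 6.42 and 5.04 CPM in the 3 neutrophil libraries and 86, 67.6 and 66.5 CPM in the 3 macrophage libraries (log2 difference −3.70, SE 0.261, adjusted p = 4.60e-10). Among nucleotide and one-carbon genes, 13 of 25 were higher in neutrophils, led by *Rrm2* (3.205), *Phgdh* (2.89), *Mthfd2* (2.11) and *Tyms* (1.97), and *Dhodh* (−0.998), *Atic* (−0.70), *Mthfd1* (−0.65) and *Adsl* (−0.52) were higher in macrophages, of which *Mthfd1* passed in 11 of 18 alternatives. The erythroid and progenitor markers given above were higher in the same libraries, and their part in these differences was not tested. *Cdc20* overlaps *Elovl1* on the opposite strand, which had more counts, and *Cdk4* overlaps *Tspan31*, which had nearly as many.

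Ribosomal protein genes were higher in macrophages for 53 of 81 by small amounts (median −0.42). The list summed to 58908, 64045 and 54054 CPM in neutrophils and 77346, 94546 and 65732 CPM in macrophages. The exception was *Rpl3l* (ratio 40.1, with a 95% counting interval of 10.7 to 337), a muscle form, and *Rps2* (−1.67) and *Rps27l* (−1.63) passed the over 2-fold test, although 92.3% of the 3′ sequences of *Rps2* also occur in pseudogenes. Among other genes named above, the share of 3′ 31-base sequences that also occur in another gene was 66.6% for *Cd63*, 47.9% for *Phgdh*, 39.6% for *Trf*, 35.5% for *Ldhb* and 30.9% for *Clec4b1*. Proteasome subunits were higher in macrophages for 21 of 37, led by *Psmb6* (−1.76), and *Psmb9* (0.76) and *Psmd4* (0.30) were higher in neutrophils, *Psmd4* in 13 of 18 alternatives. Among 13 BCL2 family genes, 7 were higher in macrophages and 5 in neutrophils. The survival genes *Bcl2a1b* (−4.22) and *Bcl2a1d* (−3.06) and the pro-death gene *Bax* (−1.33) were higher in macrophages by over 2-fold, followed by the survival gene *Bcl2l1* (−1.05), the pro-death gene *Bcl2l11* (−0.91), *Bad* (−0.34), another pro-death gene, and the survival gene *Mcl1* (−0.28). The pro-death genes *Bid* (1.39), *Bbc3* (1.26), *Pmaip1* (0.88), *Bmf* (0.68) and *Bak1* (0.55) were higher in neutrophils, of them *Bid* by over 2-fold. The small differences depended on the processing: of 18 alternatives, *Mcl1* passed in 5, *Bmf* in 9, *Bak1* in 10 and *Bad* in 11. In the 6 CGRP libraries the direction turned for *Bcl2l1* (1.32) and *Pmaip1* (−0.557). The *Bcl2a1* genes share over 90% of their 3′ sequence with each other, and reads may have been split between them. *Thbs1*, which encodes the matrix protein thrombospondin-1, was at 112, 104 and 118 CPM in the 3 neutrophil libraries and 42.4, 38.3 and 70.8 CPM in the 3 macrophage libraries (log2 difference 1.21, SE 0.173, adjusted p = 5.58e-06).

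The same contrast was also available in the 6 CGRP libraries, which share no library with the saline comparison. Of the 6717 genes called with saline that were also tested there, 5620 were called in the same direction and 26 in the opposite direction. The difference between the contrasts was not tested for single genes. In the CGRP libraries *Thbs1* was higher in macrophages (log2 difference −1.41), whereas the lineage genes *Camp*, *Ly6g*, *Csf3r*, *Csf1r*, *Adgre1*, *Cebpe*, *Slc2a3* and *Atp6v0d2* kept their direction, and they passed the test in every alternative in which they were tested.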

How the data were processed

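Cells were harvested after 4 h with saline and their RNA was sequenced with poly-A priming and unique molecular identifiers. The authors removed PCR copies with the umi function of the nfCore/RNAseq pipeline, used STAR for alignment to GRCm38 and featureCounts for counting, and deposited the gene counts raw, 1 table for each cell type. The annotation release and strand setting are not given in the sources used here. The 52636 genes are the same in both tables, and 52489 identifiers were found in a GENCODE annotation of GRCm38, from which positions were taken. No library was a copy of another.

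Genes were kept by edgeR's filterByExpr and libraries were scaled by TMM. The 6 saline libraries were compared by limma-voom, as in the study's methods, two-sided, with p-values adjusted by Benjamini-Hochberg across all 10186 tested genes (threshold 0.05), and by limma's treat for over 2-fold. A step on simulated data recovered 65 of 98 genes changed by 2-fold (66.3%) and 98 of 99 changed by 4-fold (99%), with 11 false calls among 9936 genes. Far fewer genes were changed there than the 68.5% called in the data. The step therefore does not check the scaling where most genes differ. Results were recomputed without each library, and with DESeq2, edgeR's quasi-likelihood test, other scalings, other count filters, quality weights, thinned counts, removal of the 100 most abundant genes, a fit over 12 libraries, the 6 CGRP libraries in place of the saline ones, and a replicate block. The pairing check compared deviations from the group means between libraries of the 2 cell types. Libraries with the same replicate number in the labels correlated at 0.102, 0.145 and 0.210, and those with different numbers at −0.143 to 0.0111. By the rule used the numbers pair the libraries, but deviations cancel within a group, so these weak correlations depend on each other and do not settle the question. No source says that the numbers mark shared mice. The main fit did not use them, and the replicate block did.

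The members and the 54 gene lists (1038 genes) were chosen with earlier results of these data known, and list counts are descriptions. As 83 genes are in more than 1 list, the counts of different lists are not independent. Named genes are the 10 with the largest difference each way among those past the over 2-fold test, with at least 100 counts and without overlap, a set of 26 lineage and receptor genes, up to 4 leading genes of each list in each direction, the members against a list's direction, and all members of lists of at most 8. *Apoe*, *Bad*, *Bcl2l11*, *Cln3*, *Ctsd*, *Fth1*, *Maf*, *Mcl1*, *Mcoln1*, *Mitf*, *Mki67*, *Pparg*, *Tfe3* and *Tfeb* were named after their values were seen, as were genes at 0 and overlapping genes. Some genes that this rule names are not reported here. Promoters came from RefSeq. Shared sequence is the share of 31-base sequences in the last 500 bases of a transcript that occur in another gene. Fits ran in R (version 4.3.3) under limma version 3.58.1, edgeR version 4.0.16 and DESeq2 version 1.42.0, and figures were drawn with matplotlib.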

Additional observations from a re-analysis of the deposited data

How the results depend on the processing

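The number of genes called ran from 5236 (at least 10 counts in every library, 7946 genes tested) to 8452 (no filter), against 6975, and leaving out each library gave 6547 to 7265. Requiring 10 counts in every library removes genes that a cell type lacks, and it left 1392 genes over 2-fold, 772 higher in neutrophils and 620 in macrophages. In the lists it left 72 calls for identity (61 over 2-fold), 13 for other cells (8), 40 over 2-fold for receptors and 17 for transcription factors. A replicate block gave 7291 genes called, 6961 of them also called without it, and 2775 over 2-fold, and pairing moved no count by over 1.5 times. Among the tested genes whose values the text gives, it gave *Fcgr3*, *Stat2* and *Tfeb* a call and changed no other. Without TMM the median of all genes was −0.0619 and the balance of calls turned, with 3249 genes higher in neutrophils and 3556 in macrophages against 3614 and 3361. The median log2 difference of a list changed sign in the CGRP libraries for Toll-like and NOD-like receptors (0.297 against −0.404) and for other chemoattractant receptors (0.142 against −0.633), and with 10 counts in every library for azurophil genes (−2.17 against 7.58) and integrins (−0.471 against 0.924). The medians of the platelet, dendritic cell, progenitor, arachidonate and BCL2 lists changed sign under at least 1 alternative too. Among genes called, none changed sign under an alternative other than the CGRP libraries, where 167 did. There the log2 difference was −1.41 for *Thbs1*, −0.203 for *Cebpb*, −0.427 for *Nr4a1*, −0.557 for *Pmaip1*, 1.32 for *Bcl2l1* and 0.0846 for *Tgfbr1*; the cause was not tested. Of genes that did not pass, *Spi1* was at 0.00335 in DESeq2, 0.00342 with its size factors, 0.0200 with 10 counts in every library, 0.0166 in the CGRP libraries, 0.0119 without the 100 most abundant genes and −0.0114 to 0.0158 without a replicate. *Cebpg* was at 0.0109 with 10 counts in every library, 0.00263 without abundant genes and −0.0315 to 0.0661 without a replicate, and *Crcp* at −0.190 to 0.0182 without a replicate. *Cebpb*, *Bad*, *Bak1*, *Bmf*, *Mcl1*, *Acly*, *Pfkm*, *Il3ra* and *Mthfd1* each lost their call in 7 or more of the alternatives, and *Psmd4*, *Nr4a1*, *Txn1* and *Ireb2* in 4 or 5.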
